A study of Mus musculus with 12 samples.

Results

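The genes described here were 10 cytokine, receptor and chemokine genes of the type 1 immune axis: Il18, Il12a, Il12rb1, Ifng, Ifngr2, Cxcl9, Cxcl10, Ccl5, Xcl1 and Il15. They were taken from a list by symbol and read from the brightest probe set of each gene, with the symbol found through the RefSeq accession in the probe set's name. They were 10 of the 909 genes that could be named among 1246 probe sets, and each had a single named probe set, so brightness decided nothing. The list was drawn up with differences between the tumour lines in these same arrays already known.

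Mouse melanoma tumours were profiled on 12 Affymetrix arrays, in 4 groups of 3. The mice were wild-type (WT) or lacked galectin-3 (knockout, Gal3 -/-), a sugar-binding protein encoded by Lgals3. Each host carried tumours of 1 of 2 injected melanoma lines, Tm1N3 or Tm1G3. Tm1N3 was taken here as the line that expresses galectin-3 and Tm1G3 as the silenced one. The array titles name the lines without their galectin-3 status, so which line carries it could not be checked. Line differences are therefore given by line name only. The series' design text says that the silenced line was the starting point and that galectin-3 was put back with a coding plasmid. The labels used here do not give the age or sex of the mice, nor whether a line is 1 clone. With a single line of each kind, galectin-3 and any other difference between Tm1N3 and Tm1G3 cannot be told apart. The labels number 3 replicates in a group without saying that each is a separate animal, so a p-value here measures the spread between arrays, which may be technical.

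Interleukin-18 and interleukin-12 are made by myeloid and epithelial cells, and together they drive natural killer (NK) and T cells to release interferon gamma. Interferon gamma acts through a receptor of paired chains and induces the chemokines Cxcl9 and Cxcl10, which draw in T and NK cells bearing the receptor Cxcr3. In melanoma this loop is known for its link with infiltration by cytotoxic lymphocytes.

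The start-proximal sequence of members is shown for the gene that differed most between lines, for the receptor chain that differed with it, and for the paired chemokines that lie next to each other on chromosome 5. Each window holds the 250 bases before the RefSeq gene start, from assembly GRCm38.p6, written 5′ to 3′ on the gene's own strand. Capitals mark a match to 1 of 3 searched motifs: the interferon gamma-activated site (GAS, TTCNNNGAA), the interferon-stimulated response element (ISRE, TTTC, any 2 bases, TTTC) and the NF-kB motif. The windows lie at chr9:50554450-50554699 on the plus strand for Il18, chr16:91546809-91547058 on the plus strand for Ifngr2, chr5:92328080-92328329 on the minus strand for Cxcl9 and chr5:92348890-92349139 on the minus strand for Cxcl10.
Il18: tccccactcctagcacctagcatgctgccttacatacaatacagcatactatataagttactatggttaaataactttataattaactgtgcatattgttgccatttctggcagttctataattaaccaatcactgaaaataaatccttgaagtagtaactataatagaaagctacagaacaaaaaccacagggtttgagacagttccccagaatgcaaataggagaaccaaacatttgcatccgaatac
Ifngr2: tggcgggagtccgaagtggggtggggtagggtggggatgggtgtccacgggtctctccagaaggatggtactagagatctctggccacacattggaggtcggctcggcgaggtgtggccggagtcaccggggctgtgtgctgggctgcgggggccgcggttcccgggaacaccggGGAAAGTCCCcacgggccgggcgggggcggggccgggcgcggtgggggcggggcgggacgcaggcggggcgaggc
Cxcl9: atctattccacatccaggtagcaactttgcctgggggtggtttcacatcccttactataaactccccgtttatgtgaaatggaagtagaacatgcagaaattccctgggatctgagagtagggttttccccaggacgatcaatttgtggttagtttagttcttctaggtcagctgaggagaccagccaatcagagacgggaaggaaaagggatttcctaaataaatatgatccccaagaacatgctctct
Cxcl10: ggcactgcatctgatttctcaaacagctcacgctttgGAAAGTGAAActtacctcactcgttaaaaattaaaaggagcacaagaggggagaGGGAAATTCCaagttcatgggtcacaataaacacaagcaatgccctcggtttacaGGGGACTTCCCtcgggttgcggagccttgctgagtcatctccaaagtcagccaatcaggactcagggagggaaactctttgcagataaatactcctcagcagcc

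The Cxcl10 window held an ISRE match 204 to 213 bases before the start. It also held 3 NF-kB matches, 1 at 150 to 159 bases and 2 that overlap each other between 94 and 104 bases. The Ifngr2 window held 1 NF-kB match 66 to 75 bases before the start. The Il18 and Cxcl9 windows held no match to these letters. Both strands were searched. Over 32851 mouse windows of the same length, 7.02% held a GAS match, 2.98% an ISRE match and 7.25% an NF-kB match. Windows were found for 7 of the 10 genes, and among the other windows Ifng held a GAS match 241 to 249 bases before its start while Il12a and Xcl1 held none of the 3 motifs.

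The values were the authors' RMA levels on a log2 scale, so 1 unit is a doubling of signal, and levels of different probe sets are not comparable. The arrays correlated with each other at 0.976 to 0.998 over all probe sets, and their medians lay within 0.0945. The Lgals3 probe set read 9.72 to 10.4 in Tm1N3 tumours of wild-type mice, 9.35 to 10.6 in Tm1N3 tumours of knockout mice, 9.33 to 9.99 in Tm1G3 tumours of wild-type mice and 8.98 to 9.80 in Tm1G3 tumours of knockout mice. These ranges overlapped, and the sources used here do not say whether the probes lie in the deleted or silenced stretch, so the labels were neither borne out nor contradicted by them. Of 12 melanocyte and melanoma markers looked up, only Kit and Mcam were measured, so the tumour type could not be checked against pigment genes. In these bulk samples fewer cells of a type and less RNA per cell cannot be told apart.

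**Figure D1:**
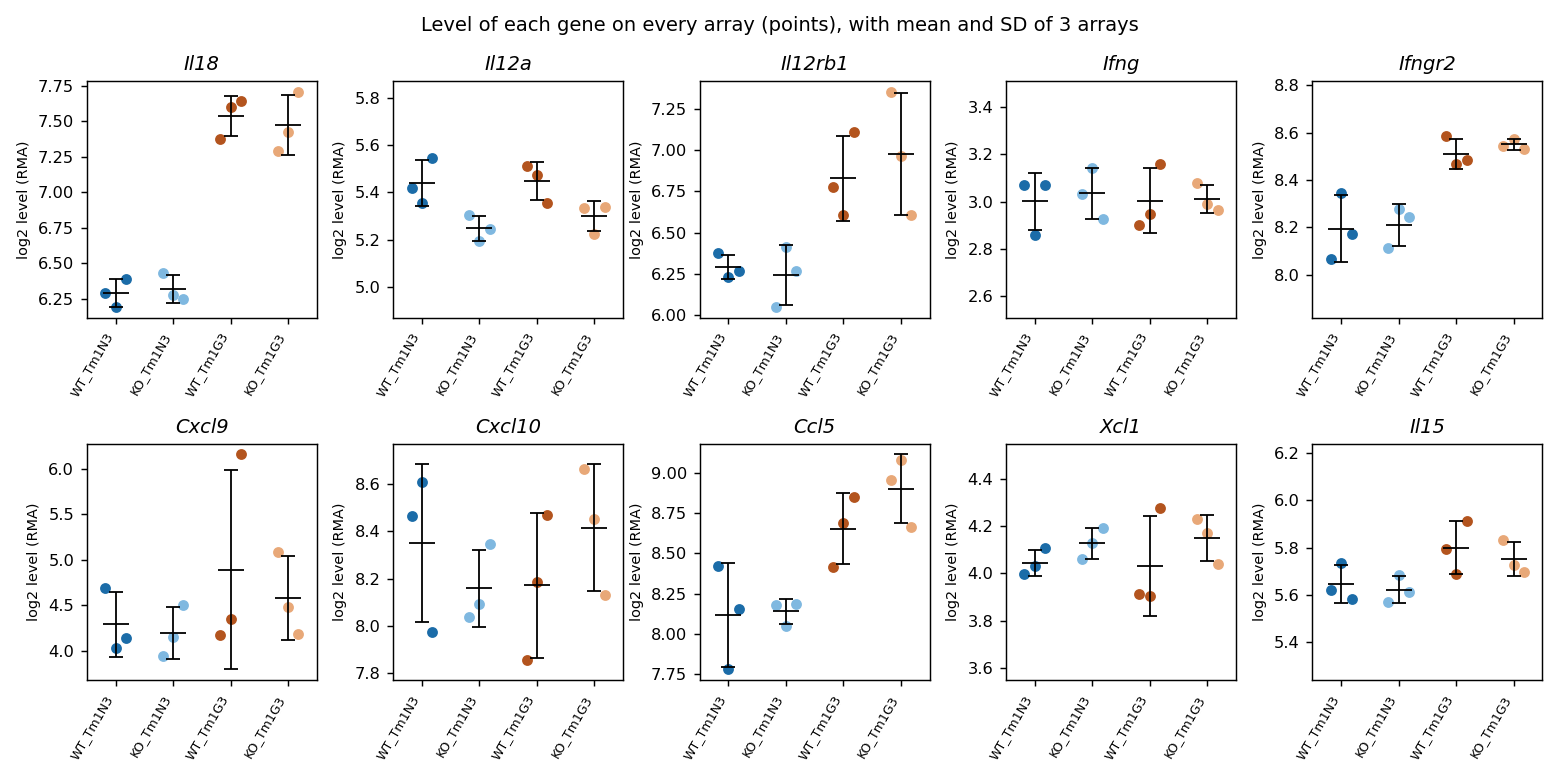
Log2 level (RMA) of each of the 10 genes on the 12 arrays, 1 panel per gene with its own axis; points are arrays and bars are means of 3 arrays per group. Il18 lies between 6.20 and 6.43 on all Tm1N3 arrays and between 7.29 and 7.71 on all Tm1G3 arrays, whereas Ifng stays between 2.86 and 3.16 throughout.

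Il18 was the member that differed most, being 2.30-fold lower in Tm1N3 than in Tm1G3 tumours, and was lower in each host. The receptor chains Il12rb1 and Ifngr2 and the chemokine Ccl5 were lower in Tm1N3 tumours by 1.55-fold, 1.26-fold and 1.57-fold. Of these Il12rb1 was the least firm, passing in 16 of 19 alternative fits. Ifng itself, Il12a, Xcl1 and the interferon-induced chemokine Cxcl10 differed between lines by less than 0.05 log2 averaged over hosts; for Cxcl10 that average joins 0.18 in wild-type and -0.26 in knockout mice. The host's genotype had no passing difference in any member. Il12a was the 1 member whose arrays separated by host, as did those of 0.562% of all probe sets. Its host difference averaged over lines had a limma p of 0.680 after adjustment by the Benjamini-Hochberg method.

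Among the ligands, Il18 encodes a cytokine of the interleukin-1 family that is stored as a precursor and cut by caspase-1. Its level was 6.29, 6.20 and 6.39 in Tm1N3 tumours of wild-type mice and 6.43, 6.28 and 6.25 in those of knockout mice. In Tm1G3 tumours it was 7.37, 7.60 and 7.64 in wild-type mice and 7.29, 7.43 and 7.71 in knockout mice. Every Tm1G3 array was above every Tm1N3 array, with a gap of 0.86 between the lowest Tm1G3 array and the highest Tm1N3 array. The line difference (Tm1N3 minus Tm1G3) was -1.25 ± 0.11 (SE) in wild-type mice and -1.15 ± 0.11 in knockout mice, or 2.37-fold and 2.23-fold lower. Averaged over hosts it was -1.20 ± 0.08, with a 95% interval of -1.38 to -1.02.

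Il12a encodes the p35 chain of interleukin-12, which pairs with p40 to form the secreted cytokine. It read 5.42, 5.36 and 5.55 in Tm1N3 tumours of wild-type mice, against 5.30, 5.20 and 5.25 in those of knockout mice. It read 5.51, 5.48 and 5.36 in Tm1G3 tumours of wild-type mice, against 5.33, 5.23 and 5.34 in those of knockout mice. All 6 wild-type arrays lay above all 6 knockout arrays, though the gap was small. By line the arrays overlapped, and the averaged line difference was -0.03 ± 0.05.

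Ifng encodes interferon gamma, made by activated T and NK cells. Its levels were 3.07, 2.86 and 3.07 in Tm1N3 tumours of wild-type mice and 3.03, 3.14 and 2.93 in those of knockout mice. They were 2.90, 2.95 and 3.16 in Tm1G3 tumours of wild-type mice and 3.08, 2.99 and 2.97 in those of knockout mice. All groups overlapped, within a total range of 0.30. The line difference was 0.01 ± 0.06, with a 95% interval of -0.13 to 0.15. The probe set was brighter than only 5.54% of probe sets, as a mean over arrays, and whether it read above background could not be examined, so these values do not show that Ifng was alike in the tumours.

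Il15 encodes a cytokine that keeps NK cells and memory T cells alive. It read 5.62, 5.74 and 5.58 in Tm1N3 tumours of wild-type mice and 5.57, 5.68 and 5.61 in those of knockout mice. In Tm1G3 tumours it read 5.79, 5.69 and 5.91 in wild-type mice and 5.83, 5.73 and 5.70 in knockout mice. The Tm1G3 arrays tended to lie higher, and the lines overlapped. The averaged line difference was -0.14 ± 0.05 (95% interval -0.26 to -0.03), and its limma p adjusted by the Benjamini-Hochberg method over 1246 probe sets was 0.186.

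Of the receptors, Il12rb1 encodes the receptor chain that interleukin-12 shares with interleukin-23. It read 6.37, 6.23 and 6.27 in Tm1N3 tumours of wild-type mice and 6.05, 6.41 and 6.27 in those of knockout mice. Tm1G3 tumours read 6.78, 6.61 and 7.11 in wild-type mice and 7.35, 6.97 and 6.61 in knockout mice. The lines did not overlap, with a gap of 0.19, and the Tm1G3 arrays were the more widely spread (SD 0.26 and 0.37 against 0.07 and 0.18). The line difference was -0.54 ± 0.18 in wild-type mice, -0.73 ± 0.18 in knockout mice and -0.64 ± 0.13 averaged.

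Ifngr2 encodes the signalling chain of the interferon gamma receptor. It read 8.07, 8.35 and 8.17 in Tm1N3 tumours of wild-type mice and 8.11, 8.28 and 8.24 in those of knockout mice. In Tm1G3 tumours it read 8.58, 8.47 and 8.48 in wild-type mice and 8.55, 8.58 and 8.53 in knockout mice. The lines were apart by 0.12, with a tight set of Tm1G3 arrays above the Tm1N3 ones. The line difference was -0.32 ± 0.08 in wild-type mice, -0.34 ± 0.08 in knockout mice and -0.33 ± 0.06 averaged. Its partner Ifngr1, the chain that binds the ligand, had an averaged line difference of -0.12 ± 0.10 and did not pass.

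Of the chemokines, Ccl5 draws T cells, NK cells and monocytes. It read 8.42, 7.78 and 8.16 in Tm1N3 tumours of wild-type mice and 8.18, 8.05 and 8.19 in those of knockout mice. In Tm1G3 tumours it read 8.42, 8.69 and 8.85 in wild-type mice and 8.95, 9.08 and 8.67 in knockout mice. Knockout hosts kept the lines apart; in wild-type mice the lowest Tm1G3 array minus the highest Tm1N3 array was -0.0063, an overlap. The line difference was -0.53 ± 0.17 in wild-type mice, -0.76 ± 0.17 in knockout mice and -0.65 ± 0.12 averaged.

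Cxcl9, a ligand of Cxcr3 that interferon gamma induces, gave the widest spread of the 10 genes. It read 4.69, 4.04 and 4.14 in Tm1N3 tumours of wild-type mice and 3.94, 4.15 and 4.50 in those of knockout mice. In Tm1G3 tumours it read 4.17, 4.35 and 6.16 in wild-type mice and 5.08, 4.48 and 4.18 in knockout mice. Replicate 3 of the Tm1G3 tumours of wild-type mice stood more than 1 unit above every other array. The line difference in wild-type mice was -0.60 ± 0.46 with that array and 0.03 without it; in knockout mice it was -0.39 ± 0.46. Averaged over hosts it was -0.49 ± 0.32 with the array and -0.18 without it.

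Cxcl10, the other Cxcr3 ligand measured here, read 8.47, 8.61 and 7.97 in Tm1N3 tumours of wild-type mice and 8.04, 8.09 and 8.35 in those of knockout mice. In Tm1G3 tumours it read 7.86, 8.19 and 8.47 in wild-type mice and 8.66, 8.45 and 8.13 in knockout mice. All groups overlapped. The line difference was 0.18 ± 0.20 in wild-type mice and -0.26 ± 0.20 in knockout mice, and the interaction, which is the second minus the first, was -0.43 ± 0.29 (limma p adjusted by Benjamini-Hochberg 0.996). Averaged over hosts the line difference was -0.04 ± 0.14, with an interval of -0.36 to 0.28.

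Xcl1, which NK and T cells release to draw in cross-presenting dendritic cells through Xcr1, read 4.0, 4.03 and 4.11 in Tm1N3 tumours of wild-type mice and 4.06, 4.13 and 4.19 in those of knockout mice. It read 3.91, 3.91 and 4.28 in Tm1G3 tumours of wild-type mice and 4.23, 4.17 and 4.04 in those of knockout mice. The highest and the lowest arrays both belonged to Tm1G3 tumours of wild-type mice, and the averaged line difference was within 0.01 of 0, with an SE of 0.07. The probe set was brighter than 22.6% of probe sets.

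Averaged over hosts, 4 of the 10 genes passed in limma with a Benjamini-Hochberg adjusted p under 0.05 over all 1246 probe sets, against 4.25% of all probe sets. All 4, Il18, Il12rb1, Ifngr2 and Ccl5, were lower in Tm1N3, where 2.97% of all probe sets were called lower and 1.28% higher. Since the list was drawn up knowing these line results, nothing is read from that contrast. Quantile normalizing the table again left the same 4 genes called and gave 29 probe sets higher and 28 lower in Tm1N3, where the values as deposited gave 16 and 37. Of the 10 line differences 9 were below 0, beside 49.0% of all probe sets; their median was -0.23, beside 0.0027 over all probe sets. Il12rb1 lost its call without replicate 2 of the Tm1G3 tumours of knockout mice (limma, Benjamini-Hochberg adjusted p = 0.0533) and without replicate 2 of the Tm1N3 tumours of wild-type mice (0.0522). A random block for arrays of 1 line that share a replicate number also ended it (0.0709), which left 3 genes.

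Within 1 host the same comparison called fewer genes. In wild-type mice 1 of 10 passed, Il18, against 0.883% of all probe sets, and in knockout mice again Il18 alone, against 0.722%. With 1 array left out Il18 still passed in both, while the 11 probe sets called in wild-type mice became 2 (without replicate 3 of their Tm1G3 tumours) to 21 (without replicate 3 of the Tm1N3 tumours of knockout mice). For Il12rb1, Ifngr2 and Ccl5 the limma p-values adjusted by Benjamini-Hochberg were 0.201, 0.0736 and 0.168 in wild-type mice. In knockout mice they were 0.105, 0.0921 and 0.0819, and without replicate 2 of the Tm1N3 tumours of wild-type mice Ifngr2 (0.0477) and Ccl5 (0.0403) passed there too, for a count of 3. Averaged over hosts, the 6 arrays of each line did not overlap for 3 of the 10 genes, Il18, Il12rb1 and Ifngr2, against 3.29% of all probe sets. Within wild-type mice the lines were apart for 3 of 10, against 16.9%, and within knockout mice for 5 of 10, against 13.7%, where Ccl5 and Il15 joined the other 3.

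**Figure D2:**
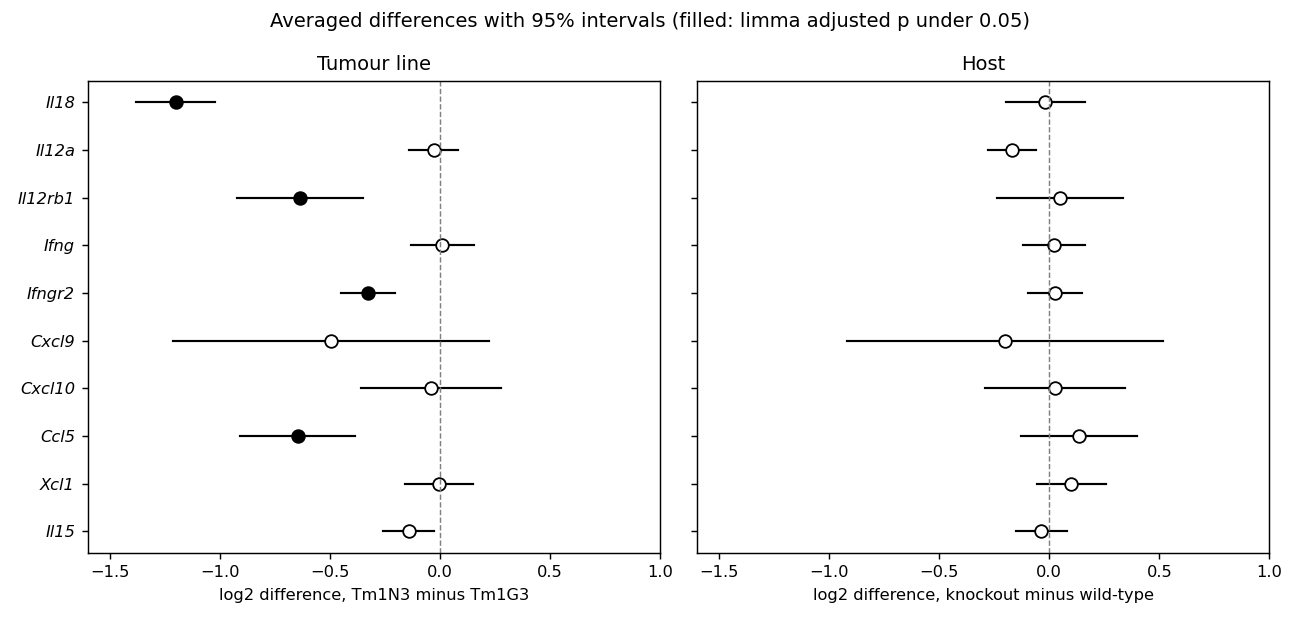
Averaged log2 differences of the 10 genes with 95% intervals from limma, for the tumour line (Tm1N3 minus Tm1G3, left) and the host (knockout minus wild-type, right); filled points have an adjusted p under 0.05. Il18 sits at -1.20 on the left, and no host point on the right is filled, Il12a at -0.17 included.

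The host comparison, knockout minus wild-type, asks what galectin-3 of the host's own cells does to the axis. None of the 10 genes passed in limma averaged over lines, in Tm1N3 tumours or in Tm1G3 tumours, and 0% of all probe sets were called in each. At an unadjusted p under 0.05 stood 1 of 10 averaged over lines, 1 in Tm1N3 tumours and 0 in Tm1G3 tumours, against 6.26%, 4.33% and 6.18% of all probe sets. Il12a was that gene in both. Its averaged host difference was -0.17 ± 0.05 (95% interval -0.28 to -0.06), a level 1.13-fold lower in knockout mice, with an unadjusted limma p of 0.0060 and 0.680 after Benjamini-Hochberg adjustment. The difference was -0.19 ± 0.07 in Tm1N3 tumours and -0.15 ± 0.07 in Tm1G3 tumours. Its wild-type arrays lay between 5.36 and 5.55 and its knockout arrays between 5.20 and 5.34, a separation by host that 0.562% of all probe sets showed. Within a line Il12a was again the 1 member of 10 whose hosts did not overlap, against 7.62% of all probe sets in Tm1N3 and 12.4% in Tm1G3 tumours.

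For the other genes the averaged host difference was -0.02 ± 0.08 for Il18, 0.05 ± 0.13 for Il12rb1, 0.02 ± 0.06 for Ifng and 0.03 ± 0.06 for Ifngr2. The chemokines stood at -0.20 ± 0.32 for Cxcl9, 0.03 ± 0.14 for Cxcl10, 0.13 ± 0.12 for Ccl5 and 0.10 ± 0.07 for Xcl1, and Il15 at -0.04 ± 0.05. The 95% intervals were -0.20 to 0.16 for Il18 and, for Cxcl9, the least precise, -0.92 to 0.52. They rest on the spread between arrays, which may be technical, so they do not bound the difference between hosts. No line-by-host interaction passed in limma either, for 0 of the 10 genes and 0% of all probe sets, with 0 of 10 and 2.81% at an unadjusted p under 0.05.

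**Figure D3:**
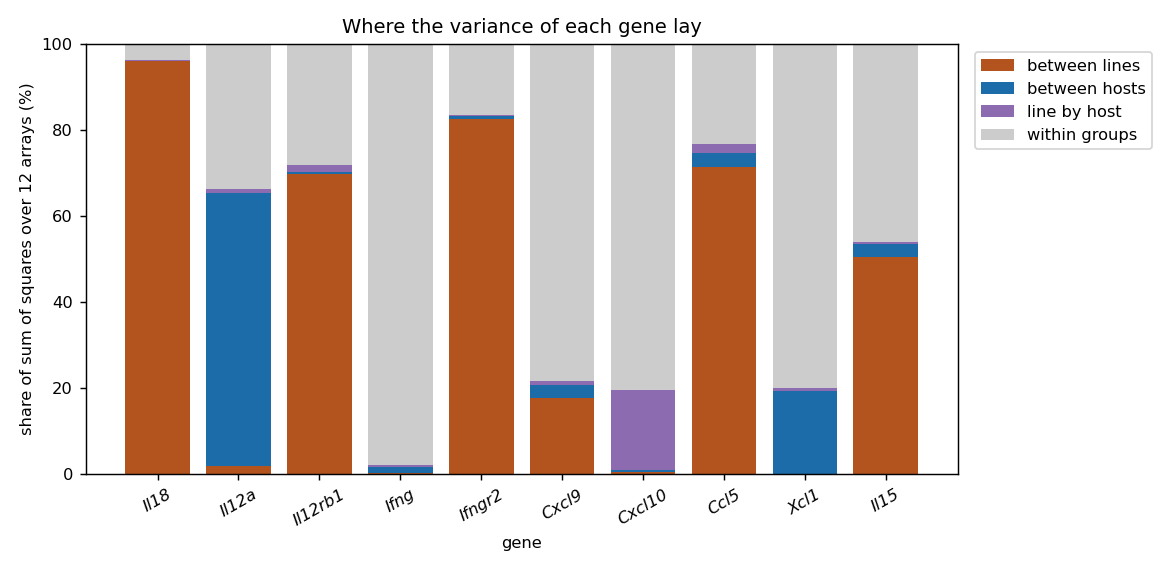
Share of each gene's sum of squares over the 12 arrays, in percent, that lay between lines, between hosts, in their interaction and within groups. The line takes 96.1% for Il18, the host 63.5% for Il12a, and the spread within groups 97.9% for Ifng.

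The genes differed in where their variance lay. The line held 96.1% of the sum of squares of Il18, 82.7% of Ifngr2, 71.5% of Ccl5 and 69.9% of Il12rb1. It held 50.4% of that of Il15. The host held 63.5% for Il12a. Spread between arrays of a group held most of it for Ifng (97.9%), Cxcl10 (80.4%), Xcl1 (80.0%) and Cxcl9 (78.4%). Ifng and Xcl1 are among the dimmest 25% of probe sets.

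Because group differences alone make levels correlate, the genes were also compared by each array's deviation from its group mean. Over the 12 arrays, which share 1 normalization, the 45 pairs of genes had a median correlation of deviations of 0.114, with 15 pairs over 0.5 and 5 under -0.5. The lowest were Il12a with Cxcl10, at -0.72, Ifngr2 with Ccl5, at -0.71, and Il12a with Il15, at -0.63. The highest was Cxcl9 with Xcl1, at 0.882, which was 0.559 without replicate 3 of the Tm1G3 tumours of wild-type mice. Cxcl9 with Il12rb1 stood at 0.760, and between 0.720 and 0.821 whichever 1 array was left out. Cxcl9 with Cxcl10 stood at 0.683, Il12rb1 with Xcl1 at 0.751 and Il12rb1 with Il15 at 0.748. Cxcl9 with Ifng stood at 0.656, and at 0.323 without that same array.

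The 6 pairs among Il18, Il12rb1, Ifngr2 and Ccl5 correlated at 0.648 to 0.847 in level, and 3 of them were negative in deviation. Il18 and Il12rb1 correlated at 0.757 in level and at -0.55 in deviation, between -0.85 and -0.19 with 1 array left out. Ifngr2 and Ccl5 correlated at 0.648 in level and at -0.71 in deviation, and Il18 and Ifngr2 at -0.53 in deviation. Il12rb1 and Ccl5 stood at 0.420 there. Some arrays were high for several genes at once. Replicate 3 of the Tm1G3 tumours of wild-type mice deviated by 1.26 for Cxcl9, 0.28 for Il12rb1, 0.30 for Cxcl10 and 0.24 for Xcl1, and replicate 1 of the Tm1G3 tumours of knockout mice by 0.50, 0.38, 0.25 and 0.08.

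**Figure D4:**
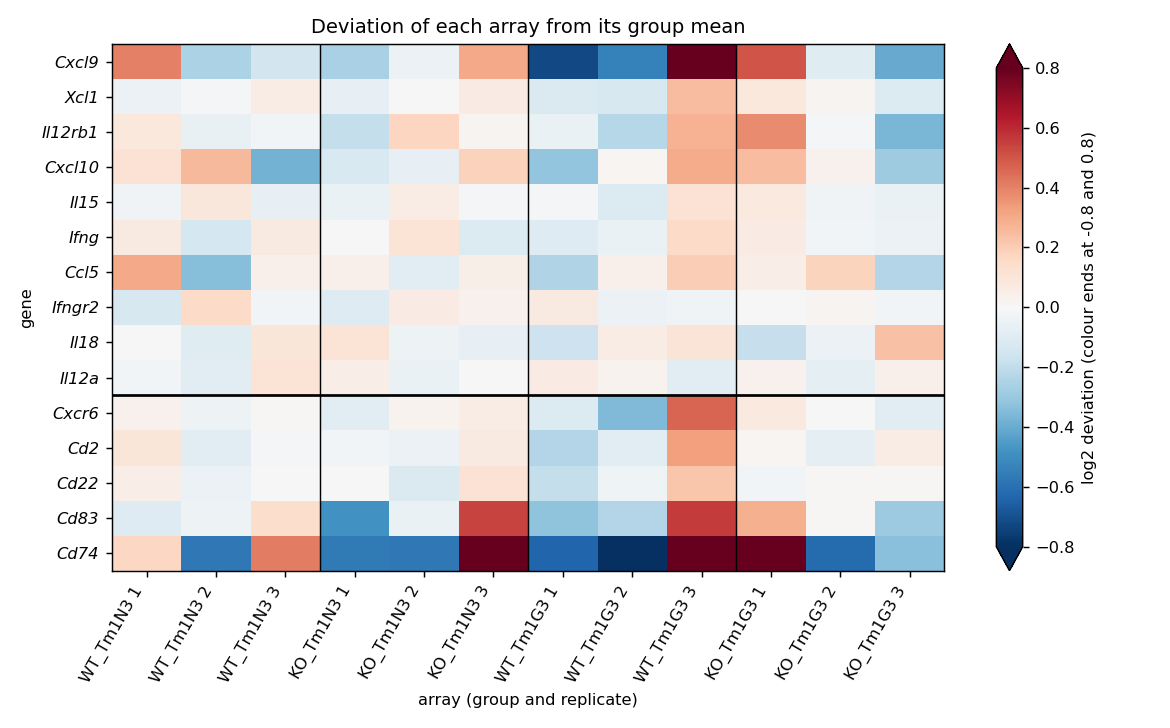
Deviation of each array from its group mean (log2) for the 10 genes, arrays grouped by line and host. Below the dividing line are Cxcr6, Cd2, Cd22, Cd83 and Cd74, picked for their correlation with Cxcl9 or Xcl1 on these same arrays. Cxcl9 deviates by 1.26, beyond the end of the colour scale, on replicate 3 of the Tm1G3 tumours of wild-type mice. On that array Il12rb1, Cxcl10 and Xcl1 were also above their group means.

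The 3 named genes most like each member over the 12 arrays were found by correlation of levels, as a description. For Il18 they were Frem1, an extracellular matrix protein (0.963), and the sugar-transferring enzymes St6galnac6 (0.922) and Mgat3 (0.922). For Il12rb1 they were the adhesion molecule Icam2 (0.946), Il17rc (0.902) and the receptor Kit (0.869). Icam2 also followed Il12rb1 inside groups, at 0.816 in deviation, whereas Frem1 and Il18 stood at 0.094 there. For Ifngr2 they were the proteoglycan Sdc2 (0.936), Txndc12 (0.928) and Il17rd (0.920). For Ccl5 they were Il17rc (0.917), Hdac5 (0.892) and Tenm4 (0.880).

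Cxcl9 was most like Cxcr6, a chemokine receptor of T and NK cells (0.906), the T and NK cell adhesion molecule Cd2 (0.880) and the B cell receptor modulator Cd22 (0.768). Without replicate 3 of the Tm1G3 tumours of wild-type mice these correlations of levels were 0.586, 0.549 and 0.331. Xcl1 was most like Cd74, the invariant chain of MHC class II (0.823), the dendritic cell maturation marker Cd83 (0.808) and Sult1d1 (0.764). Cd74 read 10.3 on that replicate, 10.3 on replicate 1 of the Tm1G3 tumours of knockout mice and 10.2 on replicate 3 of the Tm1N3 tumours of knockout mice, and 7.82 to 8.98 on the other 9 arrays. Those 3 arrays had the highest Cxcl9 and Xcl1 levels of their groups.

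Il12a was most like Mbl1, a lectin of the complement system (0.857), Klrc3 (0.799) and Btc (0.766). Cxcl10 was most like Glce (0.698), Galnt11 (0.686) and Il2rb (0.642), and Ifng was most like Klra3 (0.726), Galnt13 (0.719) and Slc35d3 (0.634). Il15 was most like Gfra1 (0.881), Galnt10 (0.860) and Gm2a (0.858).

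The rest of the pathway was read from 6 lists, less the 10 genes themselves, and none of their measured genes passed in any comparison. The interleukin-18 pathway list had only 2 of its 12 genes measured. Averaged over hosts, 0 of these 2 passed in limma: the receptor chains Il18r1, at -0.06 ± 0.07, and Il18rap, at -0.03 ± 0.07. Il18r1 was brighter than only 7.95% of probe sets. In the interleukin-12 family 6 of 11 genes were measured and 0 passed, with the signal-transducing chain Il6st at -0.24 ± 0.15 and Il27 at 0.02 ± 0.07. Il12b, which encodes p40, had no named probe set. Genes without a named probe set were not read. Of the list of interferons, their receptors and response genes only 9 of 39 were measured, all ligands or receptors. The response genes of that list were therefore not read. None of the 9 passed, with Il10rb at -0.21 ± 0.08 and Ifnl3 within 0.01 of 0.

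Of the T and NK cell chemokines and their receptors 13 of 19 were measured and 0 passed, though 12 of the 13 differences were below 0. Their median was -0.12, beside 0.0027 over all probe sets. The exception was Cxcr3, the receptor for Cxcl9 and Cxcl10, at 0.33 ± 0.12, while Ccl4 stood at -0.39 ± 0.29. Replicate 1 of the Tm1G3 tumours of wild-type mice read 8.91 for Ccl3 and 8.15 for Ccl4. The next highest array for both, replicate 3 of the Tm1N3 tumours of knockout mice, read 6.99 and 7.10. How many differences lay below 0 was not counted again without that Tm1G3 array. Of the interleukin-15 and common gamma chain list 10 of 11 were measured and 0 passed, with the shared receptor chain Il2rg at 0.15 ± 0.14 and Il15ra at 0.06 ± 0.06. Of the type 2 and regulatory cytokines and receptors 13 of 16 were measured and 0 passed, with Tgfb1 within 0.01 of 0 and Il33 at -0.17 ± 0.42. The host difference of Tgfb1, knockout minus wild-type averaged over lines, was 0.42 ± 0.13, with a limma p of 0.680 after Benjamini-Hochberg adjustment. In that comparison 9 of the 13 genes of its list were below 0, with a median of -0.046. Host differences of the other list genes are not given here.

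Markers of cells that could make or answer these cytokines were read beside them. Of T and NK cell markers 11 of 35 were measured, 6 of those in the dimmest 25% of the table, and 0 passed; Il2rb, a receptor chain shared by interleukin-2 and interleukin-15, stood at -0.01 ± 0.10. The list's median line difference was -0.01, and their summed signal ran from 169 to 196 in Tm1N3 and from 177 to 227 in Tm1G3 tumours. Of macrophage and monocyte markers 7 of 16 were measured and 0 passed, with 6 of 7 below 0 in Tm1N3 and a median of -0.33. The brightest were Mrc1, at -0.33 ± 0.29, and Clec10a, at 0.04 ± 0.38. The summed macrophage signal ran from 505 to 1897 in Tm1N3 and from 840 to 1763 in Tm1G3 tumours. Markers of other cells also differed with the line. Of endothelial markers 6 of 12 were measured and 1, Icam2, was lower in Tm1N3 (-0.40 ± 0.08, limma, Benjamini-Hochberg adjusted p = 0.0215), whereas the brightest, Emcn, stood at 0.23 ± 0.20. The median of the endothelial list was 0.0185, with 3 of 6 below 0. Both measured melanoma markers passed, the growth factor receptor Kit lower (-0.99 ± 0.15) and the adhesion molecule Mcam higher (0.66 ± 0.15) in Tm1N3 tumours. The 1 measured epithelial marker, Lgals7, was higher there (0.63 ± 0.15). None of 4 neutrophil, 2 B cell and 5 fibroblast markers passed, and their list medians were -0.0369, -0.0019 and -0.0024. The brightest of each were Csf3r (-0.20 ± 0.24) and Siglece (-0.0383 ± 0.0586) for neutrophils, Cd22 (-0.0181 ± 0.0693) and Fcer2a (0.0142 ± 0.052) for B cells, and Bgn (-0.0212 ± 0.33) and Dcn (-0.51 ± 0.47) for fibroblasts. Dendritic cell markers, 8 of 12 measured with 0 passing and Flt3 and Cd209a the brightest, followed Cxcl9 and Xcl1 inside groups, at 0.80 and 0.84 in deviation over 12 arrays. Without replicate 3 of the Tm1G3 tumours of wild-type mice these were 0.524 and 0.628. The 2 B cell markers stood at 0.720 with Ccl5, at 0.714 with Cxcl9 and at 0.695 with Ifng, and without that array at 0.0679 with Cxcl9 and 0.431 with Ifng. Cd83 is on the dendritic cell list and Cd22 is a B cell marker. Both were picked above as most like Xcl1 and Cxcl9 on these same arrays, so the list correlations with those genes partly repeat that choice. Il18 stood at -0.86 with the mean of Kit and Mcam, and between -0.93 and -0.81 with 1 array left out. Those 2 melanoma markers differed by line in opposite directions. Their mean stood at 0.617 with Il12rb1, 0.542 with Ifngr2 and -0.079 with Ccl5. Kit had likewise been picked above as most like Il12rb1. With the T and NK cell markers the 10 genes ran from -0.352 for Il18 to 0.655 for Il12rb1. The part of these cells in the differences of the 10 genes was not tested.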

How the data were processed

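Total RNA from the tumours was labelled with biotin as cRNA and hybridised to Affymetrix arrays, per the labels' protocols. The authors deposited log2 levels made with RMA (background correction, quantile normalization and probe summary), which the submitters' processing notes name without a version. RMA forces the arrays to a like distribution, so a shift common to most probe sets would be removed. No scanner files were used here, so signal over background could not be examined. Of 1246 probe sets 963 were named through RefSeq, all with 1 symbol; 283 stayed unnamed. The sources used here do not give the array's own genome build; the promoter windows come from RefSeq on GRCm38.p6.

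In R 4.3.3, limma 3.58.1 (lmFit, eBayes) fitted 4 group means to the 12 arrays and 1246 probe sets, with no filter and with 8 residual and 2.39 prior degrees of freedom, and the fit was tested on simulated data. Fold changes are antilogs of log2 differences. Adjusted p-values are Benjamini-Hochberg values over all probe sets, called under 0.05. The genes named are the 10 listed genes, of each pathway and marker list those that passed plus the 2 brightest, and for each of the 10 the 3 genes with the highest correlation of levels; Ifngr1, the partner of Ifngr2, was added after its values were seen. The 10 genes and all lists were chosen with earlier results of these data known. A marker gene among those is not reported here.

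Replicate numbers are shared between groups. Deviations of same-numbered arrays over all probe sets correlated at 0.184 to 0.752 between hosts in Tm1N3 tumours and at 0.249 to 0.308 in Tm1G3 tumours. Between lines the range was 0.0081 to 0.544 in wild-type mice and -0.66 to 0.27 in knockout mice. By the rule used here, every correlation over 0.1, the numbers would pair hosts within a line but not lines. Arrays of different numbers were not compared, and the labels do not say what the numbers stand for. The main fit had no block, and a fit with the number as a block was an alternative. The others were array weights, centring, another quantile normalization, filters on dim probe sets, a fit of only the groups compared, a random block and leaving out each array. Averaging all probe sets of a gene was planned and changes nothing, since each of the 10 genes has 1. Lists and motifs are described by counts only, without set tests.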

Additional observations from a re-analysis of the deposited data

Results flagged for a closer look

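Over the 6 arrays of wild-type hosts, Cxcl9 had an array far from the rest: replicate 3 of the Tm1G3 tumours read 6.16, and its gap to the next array was 0.690 of the whole range. The same look at 40 sets of arrays of the 10 genes found this 1, where chance gives about 1 in 20, or 2 of 40. On that array Il12rb1, Cxcl10 and Xcl1 were also above their group means, by 0.28, 0.30 and 0.24. Whether this reflects the tumour or the array was not tested.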

How the results depend on the processing

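Il18, Ifngr2 and Ccl5 passed in the averaged line comparison in all 19 alternatives that gave them a value, and Il12rb1 in 16 of 19; the averaged count of 4 genes was 3 with the replicate number as a random block, 4 with it as a fixed replicate block, and 3 to 4 with 1 array left out. That random block gave Il12rb1 an adjusted p of 0.0709 (limma, Benjamini-Hochberg); the host calls of the 10 genes did not change with the block, at 0. With array weights the count of the 10 genes was 4 in knockout mice and 2 in wild-type mice, against 1 and 1; with 1 array left out it was 1 to 3 in knockout mice, the 3 coming without replicate 2 of the Tm1N3 tumours of wild-type mice. Over all probe sets the averaged calls were 53, against 131 with array weights and 32 without replicate 2 of the Tm1G3 tumours of knockout mice. They were 9 and 11 in knockout and wild-type mice, against 55 and 48 with array weights and 4 and 3 with only the groups compared. With 1 array left out they ran from 5 to 13 in knockout mice and from 2 to 21 in wild-type mice, where 10 of the 12 arrays moved the count by over 1.5 times. With array weights 2 chemokine or receptor genes of the T and NK cell list also passed.

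Small differences changed sign without being called. With array weights the Cxcl10 host difference was -0.0346. After another quantile normalization the line differences were 0.0457 for Cxcl10 and -0.0035 for Ifng, and the Ifngr2 host difference was -0.0226. After centring the Il18 host difference was 0.0011. With 1 array left out, averaged line differences ranged from -0.12 to 0.0548 for Cxcl10, -0.0167 to 0.0497 for Ifng and -0.0351 to 0.0575 for Xcl1, and the Cxcl9 line difference in wild-type mice from -0.96 to 0.0283. Host differences ranged from -0.067 to 0.10 for Cxcl10, -0.38 to 0.11 for Cxcl9, -0.0144 to 0.0596 for Ifng, -0.0041 to 0.066 for Ifngr2, -0.0455 to 0.14 for Il12rb1 and -0.0758 to 0.0292 for Il18. The Il12a host difference stayed below 0 in all 19, with limma adjusted p-values (Benjamini-Hochberg) from 0.191 to 0.917. Why a value moved was not tested. Ifng and Xcl1 lie in the dimmest 25% and have no value once it is dropped. With 3 arrays a group, host differences well under the intervals given could not be detected, and no signal over background was at hand.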
